A study of Mus musculus with 6 samples.

Results

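The Id inhibitors and E proteins are a small interacting family of transcriptional regulators, and 7 of its genes were examined among the 34745 genes of the deposited table: Id1, Id2, Id3 and Id4, and the E protein genes Tcf3, Tcf4 and Tcf12. The rows were found by gene symbol. The set was chosen by the difference of Id1, Id2 and Id3 between control and PDTLN1 libraries, seen in an earlier analysis of the same counts, so the values of that difference are given here as a description, with no test. RNA sequencing covered 6 libraries of P19 cells, a pluripotent mouse teratocarcinoma line used to study cardiac and neural differentiation. The 3 control libraries came from cells with no treatment and the 3 treated libraries from cells given the peptide PDTLN1. All cells grew in serum-containing α-MEM with penicillin and streptomycin. Dose and length of treatment are not stated in the labels, and whether each library is a culture of its own is not stated either, so p-values measure the spread among these libraries, which may be technical.

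E proteins are basic helix-loop-helix factors that pair with each other or with tissue-specific partners and bind the E-box, a short DNA motif, through their basic region. Id proteins have the helix-loop-helix but no basic region, so a pair of an Id and an E protein does not bind DNA. Id1, Id2 and Id3 are textbook direct targets of BMP signalling, and in pluripotent cells they are known for holding back neural differentiation. TCF7L1 and TCF7L2, which act with beta-catenin, have also been called TCF3 and TCF4, and are different genes.

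Of the members with an entry among the RefSeq promoters (build GRCm38.p6), 5 were searched, over the 250 bases before each transcription start: Id2, Id3, Id4, Tcf3 and Tcf12. Stretches of 3 of them are shown because the Id2 groups did not overlap, with PDTLN1 lower, while those of Id4 and Tcf3 did. Each is cut to the part outside annotated exons, and reads 5′ to 3′ on the strand of its gene. Capitals mark the E-box CANNTG and the GC-rich SMAD1 and SMAD5 motif GGCGCC, both searched on both strands. Id2 lies at chr12:25096254-25096342 on the minus strand, Id4 at chr13:48260866-48261115 on the plus strand and Tcf3 at chr10:80433648-80433885 on the minus strand.
Id2: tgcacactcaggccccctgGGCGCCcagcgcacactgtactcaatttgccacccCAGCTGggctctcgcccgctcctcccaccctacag
Id4: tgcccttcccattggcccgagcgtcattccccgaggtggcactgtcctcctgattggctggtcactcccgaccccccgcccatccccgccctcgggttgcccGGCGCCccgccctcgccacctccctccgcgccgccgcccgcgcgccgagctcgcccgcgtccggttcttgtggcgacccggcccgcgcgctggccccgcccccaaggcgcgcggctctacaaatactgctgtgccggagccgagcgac
Tcf3: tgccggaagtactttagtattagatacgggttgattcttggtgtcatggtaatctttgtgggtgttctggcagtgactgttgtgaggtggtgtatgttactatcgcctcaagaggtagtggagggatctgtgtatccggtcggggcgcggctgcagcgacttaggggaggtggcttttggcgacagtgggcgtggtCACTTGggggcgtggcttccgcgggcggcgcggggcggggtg

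The Id2 window held 1 E-box, spelled CAGCTG, and 1 GGCGCC, 226 to 231 bases before the start. The Id4 window held 1 GGCGCC, 143 to 148 bases before the start, and no E-box. The Tcf3 window held 1 E-box, spelled CACTTG, and no GGCGCC. The Id3 window, which lies inside annotated exons and is not shown, held neither motif but held 2 copies of the shorter SMAD motif GTCTG (either strand), which was also found once, at 1 of the Tcf12 starts, and in none of the other windows. The Tcf12 gene had 3 starts, of which 2 held an E-box and none GGCGCC. Among all 32851 promoter windows of this length, 66.2% held an E-box, 9.59% held GGCGCC and 42.2% held GTCTG. These matches are letters in a window, with no measurement of binding.

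Library totals were 10381307 to 11663081 counts, and no 2 libraries agreed within counting noise (chi-square per degree of freedom 5.24 to 14.1). The libraries divided along a first principal component with 35.0% of the variance in a way that did not follow treatment. Control library 1 and PDTLN1 libraries 2 and 3 lay at -17.0, -23.5 and -11.7, while control libraries 2 and 3 and PDTLN1 library 1 lay at 14.1, 19.7 and 18.4. A list of 26 genes of the ATF4 response went with it, and its part in the results was not tested. Around their overall level the genes averaged -0.31, 0.17 and 0.40 log2 units in the controls in order of number, and 0.42, -0.45 and -0.22 in the treated libraries. Of these genes 6 lay above 0 and 20 below between the groups, and those with the smallest p, Slc7a11, Shmt2 and Phgdh, had log2 fold changes of 0.33, -0.14 and -0.11. The 8 pluripotency markers summed to 3008 to 3131 CPM, the counts divided by the scaled library size, in controls and 2900 to 3034 CPM after PDTLN1. Of the 7 tested, 2 lay above 0 and 5 below. Pou5f1 had means of 1465 and 1353 CPM, and Utf1, a pluripotency cofactor, of 74.4 and 57.1 CPM (-0.38 in log2 fold change, SE 0.09). For both the groups did not overlap, as for 4.98% of all genes with PDTLN1 lower, and the edgeR adjusted p was 0.989. The 2 above 0 were Tdgf1, with means of 368 and 387 CPM, and Sox2, with 73.8 and 75.1 CPM. The labels' extraction text speaks of retina, and of 12 photoreceptor genes 4, namely Crx, Arr3, Opn1sw and Opn1mw, had 0 counts in all 6 libraries. The 12 summed to 3.32 to 3.94 CPM in controls and 1.65 to 3.84 CPM after PDTLN1, and 1, Gnat2, was tested. Summed neural markers were at 205 to 230 CPM in controls and 174 to 209 CPM after PDTLN1, and the part of these marker lists in the results was not tested.

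Id1, Id2 and Id3 were each lower in all 3 PDTLN1 libraries than in any control library, at 0.700 to 0.723 of the control mean, while Id4, Tcf3, Tcf4 and Tcf12 overlapped between the groups. In edgeR's quasi-likelihood fit 0 of the 7 members passed, where 3 of 13836 genes did (0.0217%) after adjustment over the whole table; 3 members had an unadjusted p under 0.05, as did 318 genes with higher and 234 with lower values over the table. DESeq2 called 1 member, Id1, against 0.0723% of all genes. Of all genes tested, 4.98% had groups that did not overlap with PDTLN1 lower. Since this contrast chose the members, nothing is read from these counts.

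Id1 encodes the Id family's first described inhibitor of E proteins. It stood at 84.9, 89.7 and 88.9 CPM in control libraries 1 to 3, and at 59.1, 66.2 and 59.1 CPM in PDTLN1 libraries 1 to 3. All controls lay above all PDTLN1 libraries, with a wide space between them. The mean went from 87.9 ± 2.56 to 61.5 ± 4.10 CPM (SD, n = 3 each), a difference of -0.51 on the log2 scale (SE 0.08). Its libraries varied within groups by 5.15%, beside the 3.50% that counting alone gives at its depth of 611 to 992 counts. Control library 1 was the lowest control, and PDTLN1 libraries 1 and 3 were equally low.

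Id2 encodes an inhibitor that also binds the retinoblastoma protein. Its values were 117, 137 and 128 CPM in the controls and 110, 74.0 and 92.2 CPM after PDTLN1. The groups were separated by the narrow distance between control library 1 and PDTLN1 library 1, and PDTLN1 library 2 was the lowest of the 6. The mean went from 127 ± 9.97 to 92.0 ± 17.9 CPM (SD, n = 3 each), which is -0.47 in log2 fold change (SE 0.13). Within groups Id2 varied by 14.8%, against 2.89% from counting.

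Id3, which encodes the third inhibitor of the family, was at 76.0, 90.3 and 96.9 CPM in the controls and at 67.2, 62.4 and 58.2 CPM after PDTLN1. Control library 1 was again the lowest control and PDTLN1 library 1 the highest treated library. The mean went from 87.7 ± 10.7 to 62.6 ± 4.46 CPM (SD, n = 3 each), a difference of -0.49 on the log2 scale (SE 0.10). Id1, Id2 and Id3 thus had fold changes that lay within 1 SE of each other.

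The order of the Id2 and Id3 libraries shared features with the principal component. Without both libraries numbered 1, the log2 fold change was -0.67 for Id2 and -0.64 for Id3, against -0.51 for Id1. With the component as a covariate, it was -0.38, -0.41 and -0.52 in the same order. The main fit gave -0.47, -0.49 and -0.51, with SEs of 0.13, 0.10 and 0.08, so the covariate changed each by less than its SE. Without both libraries numbered 1, edgeR called Id1, Id2 and Id3, against 0.294% of genes called lower. The groups left in that fit lay on opposite sides of the component, so treatment and component cannot be told apart there. In bulk RNA, fewer cells that express a gene and less of its RNA per cell also cannot be told apart.

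Id4, the inhibitor best known from neural and mammary cells, was sparsely expressed, with 21 to 32 counts per library. It was at 3.07, 1.97 and 2.06 CPM in the controls and 2.71, 2.43 and 2.22 CPM after PDTLN1. All PDTLN1 values lay inside the range of the controls, which control library 1 set at its upper end. In log2 fold change it stood at 0.05 (SE 0.27), and the spread within groups was 19.6%, beside 19.5% from counting. With that SE, a difference as large as that of Id1 would hardly be detectable for Id4 at this depth. The log2 fold change was 0.28 without control library 1, and -0.06, -0.04 and -0.02 without control library 2, control library 3 and PDTLN1 library 1.

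**Figure D1:**
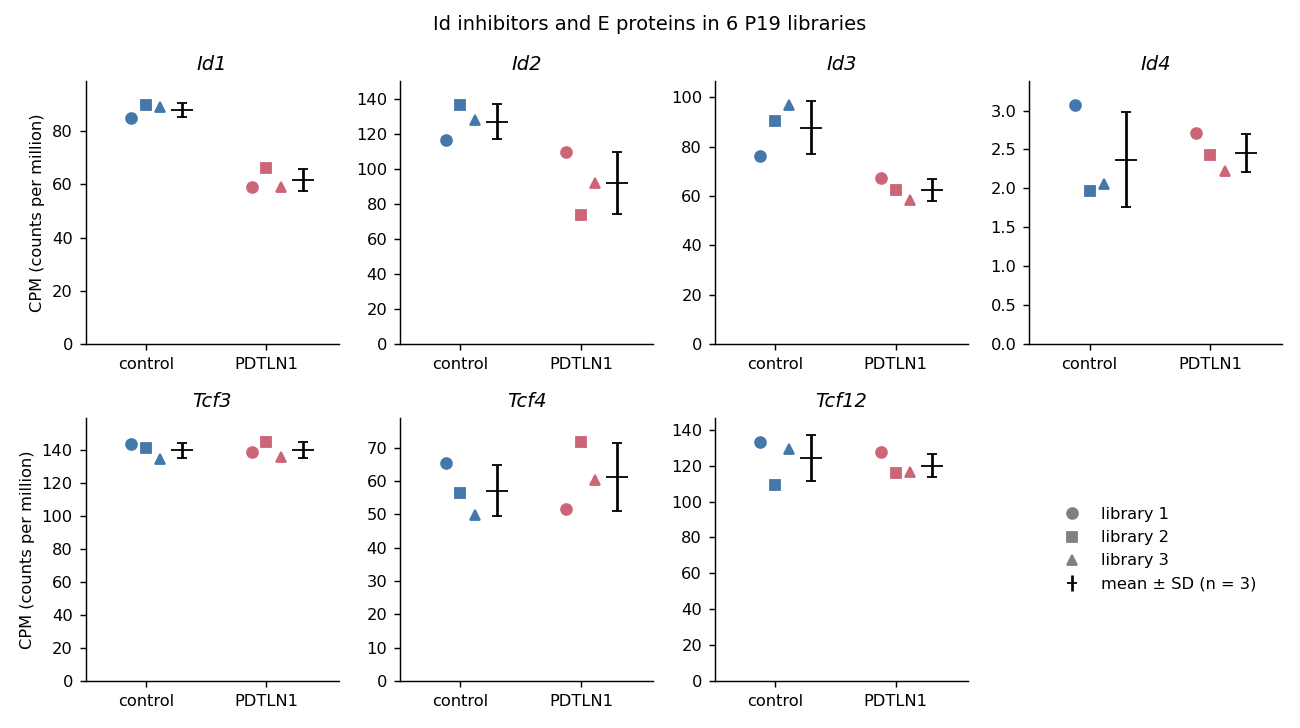
CPM (y axis from 0) of the 7 members in control (blue) and PDTLN1 (red) libraries, 1 point per library with the shape giving its number, and the mean ± SD (n = 3) beside them. Points of Id1, Id2 and Id3 do not overlap between groups, with PDTLN1 lower, and those of Id4 and the E proteins do.

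Tcf3 encodes E12 and E47, the E proteins first found on immunoglobulin enhancers. It was at 144, 141 and 135 CPM in the controls and at 139, 145 and 136 CPM after PDTLN1. The groups lay on top of each other: the means were 140 ± 4.53 and 140 ± 4.69 CPM (SD, n = 3 each), and in log2 fold change this is 0.00 (SE 0.06). Tcf3 was the steadiest member, varying within groups by 3.29% where counting gives 2.55%.

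Tcf12 encodes the E protein HEB, which in embryonic stem cells is known to take part in mesoderm formation with Nodal signalling. Its values were 133, 110 and 130 CPM in the controls and 127, 116 and 116 CPM after PDTLN1. Control library 2 was the lowest of all 6, and the other 2 controls lay above every PDTLN1 library. Its log2 fold change, -0.05 (SE 0.09), ranged from -0.13 without control library 2 to 0.00 without control library 1.

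Tcf4 encodes E2-2, the E protein of plasmacytoid dendritic cells and of several neuronal lineages. It was at 65.3, 56.4 and 49.7 CPM in the controls and at 51.6, 71.8 and 60.3 CPM after PDTLN1. Its 3 highest values belonged to control library 1 and PDTLN1 libraries 2 and 3, the libraries at the negative end of the principal component, and its 3 lowest to the others. Its log2 fold change was 0.10 (SE 0.14). It was 0.31 without both libraries numbered 1, -0.02 with the component as a covariate and -0.03 without PDTLN1 library 2, so its direction rested on the choice of libraries. Within groups Tcf4 varied by 15.2%, against 3.92% from counting.

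**Figure D2:**
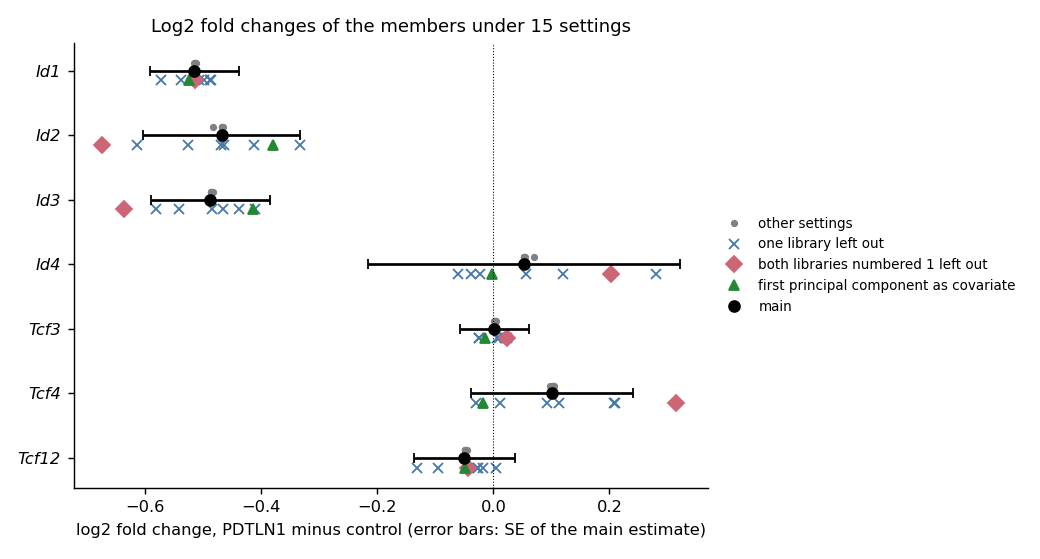
Log2 fold change (x axis, PDTLN1 minus control) of each member (y axis) under 15 settings; black points and bars are the main estimate and its SE, crosses leave out 1 library, diamonds both libraries numbered 1, and triangles use the first principal component as a covariate. Id1, Id2 and Id3 stay below 0 throughout, with Id1 between -0.57 and -0.49, and Id4, Tcf3, Tcf4 and Tcf12 lie on both sides of 0.

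**Figure D3:**
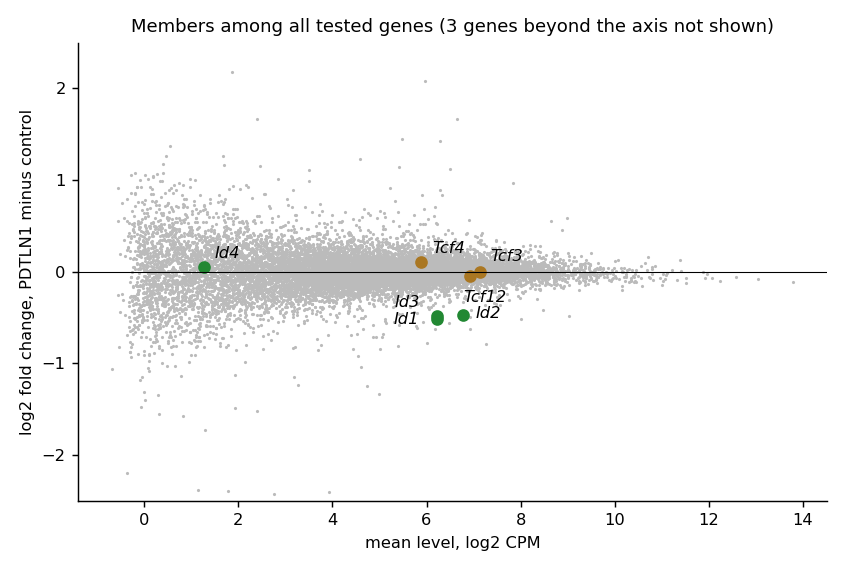
Log2 fold change (y axis, PDTLN1 minus control) against mean level (x axis, log2 CPM) for the 13836 tested genes in grey, with the Id genes in green and the E protein genes in brown; 3 genes beyond the y axis are not drawn. Id1, Id2 and Id3 lie together at about -0.5, with 1.92% to 2.43% of tested genes below them, and the E proteins lie within the main cloud.

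How far Id transcripts exceeded E protein transcripts depended on the gene length used. The deposited FPKM (counts divided by a gene length and by the size of the library) put Id2 highest in controls, at 99.9 ± 7.86 FPKM (SD, n = 3), followed by Id1 at 41.9 ± 1.24 and Id3 at 38.2 ± 4.66 FPKM. Tcf3 followed at 14.8 ± 0.469 FPKM, Tcf12 at 3.97 ± 0.410, Id4 at 1.42 ± 0.367 and Tcf4 at 1.13 ± 0.153 FPKM. The control ranges of Id1 and Id3 overlapped, as did those of Id4 and Tcf4, and the other neighbours were apart. After PDTLN1 the order of the FPKM was the same, with the same overlaps.

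The lengths behind those FPKM were read back from the counts. For Id1 (chromosome 2, 152736251 to 152737410, plus strand, GRCm38) the length was 2094 bases, although the gene spans 1160 bases; 2094 is the sum of its 2 transcripts in GENCODE M21. For Id3 (chromosome 4, 136143497 to 136145755, plus strand) it was 2293 bases, the sum of 3 overlapping transcripts. The E proteins, which have many annotated transcripts, had lengths of 9441 bases for Tcf3, 50628 for Tcf4 and 31173 for Tcf12, or 2.34, 1.85 and 2.01 times their merged exons. For Id2 and Id4 the length was 0.52 and 0.43 times the merged exons. Only Id1 and Id3 matched the sum of their transcripts. For Tcf3, Tcf4, Tcf12, Id2 and Id4 the length was 0.3, 0.466, 0.601, 0.303 and 0.431 times that sum, and Id4 has 1 transcript there. A length above the merged exons, as for Tcf3, lowers the FPKM of a gene relative to a gene with a length below them, as for Id2.

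Over merged exons of that annotation, Id1 was the highest in controls at 75.7 ± 2.21 CPM per kilobase (SD, n = 3). Id2 and Id3, at 52.2 ± 4.09 and 49.0 ± 5.96, overlapped. Tcf3 was at 34.7 ± 1.12, Tcf12 at 8.0 ± 0.826, Tcf4 at 2.09 ± 0.285 and Id4 at 0.615 ± 0.159 CPM per kilobase, with none of these neighbours overlapping. After PDTLN1, Id3 at 35.0 ± 2.49 CPM per kilobase overlapped with Tcf3 at 34.7 ± 1.16. Over the longest transcript the control order was Id1, Id3, Id2, Tcf3, Tcf12, Tcf4 and Id4. After PDTLN1, Tcf3 at 47.5 ± 1.59 CPM per kilobase of that length lay between Id3 at 49.0 ± 3.49 and Id2 at 46.7 ± 9.07, with overlapping ranges. Across the 3 lengths, Id1, Id2 and Id3 held the top 3 places in controls, with Tcf3 in the next place and Tcf12 after it.

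**Figure D4:**
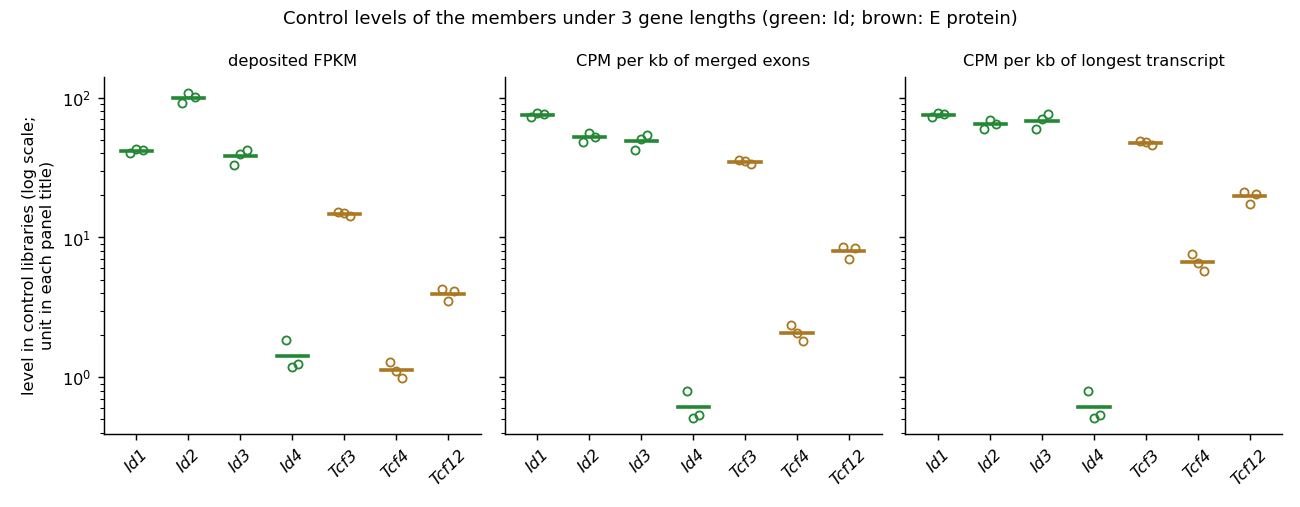
Level of each member in the 3 control libraries (y axis, log scale; circles are libraries, lines are means) as deposited FPKM, as CPM per kilobase of merged exons and as CPM per kilobase of the longest transcript, with Id genes in green and E protein genes in brown. Id2 leads in FPKM at a mean of 99.9, and Id1 leads per kilobase of merged exons at 75.7.

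The ratio of summed Id to summed E protein transcripts was lower in every PDTLN1 library than in any control library. In FPKM it was 8.06, 9.75 and 9.61 in the controls, by library number, and 7.33, 5.78 and 6.60 after PDTLN1. The mean was 9.14 ± 0.936 in controls and 6.57 ± 0.778 after PDTLN1 (SD, n = 3 each), or 0.719 of the control ratio. Over merged exons the ratio was 3.98 ± 0.385 and 2.83 ± 0.172, and over the longest transcript 2.85 ± 0.311 and 2.03 ± 0.142. The size of the excess in controls thus ranged from 2.85 to 9.14 with the length, while the PDTLN1 share of the control ratio was 0.712 with both other lengths. The sum of Id FPKM was 181 ± 12.6 and 130 ± 13.4, and that of the E proteins 19.9 ± 0.723 and 19.9 ± 0.564. These are transcript levels, and protein was not measured.

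**Figure D5:**
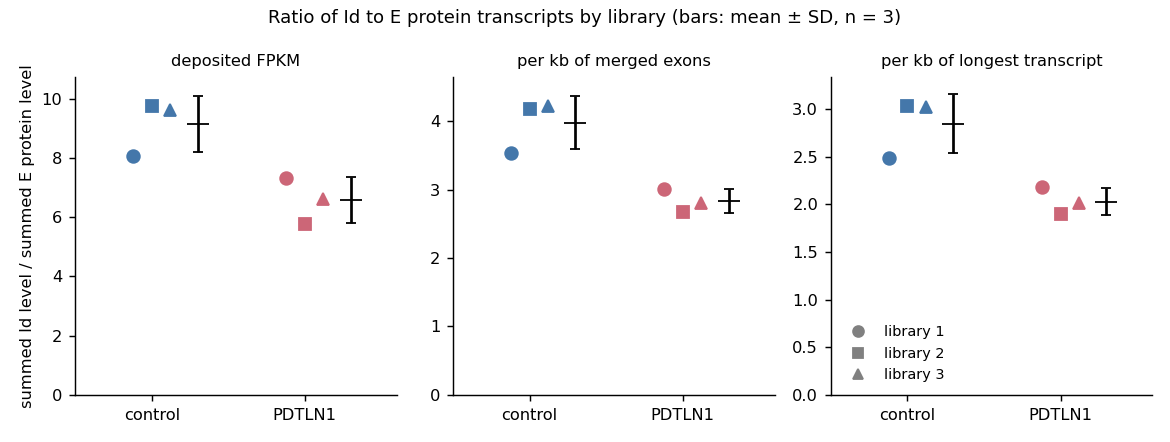
Summed level of the 4 Id genes divided by that of the 3 E protein genes (y axis from 0), by library, in control and PDTLN1 groups, under each of the 3 gene lengths; bars are mean ± SD (n = 3). In FPKM the controls lie at 8.06 to 9.75 and the PDTLN1 libraries at 5.78 to 7.33.

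The make-up of each side of the ratio overlapped between the groups. Tcf3 gave 73.2% to 76.4% of the E protein FPKM in controls and 74.3% to 75.0% after PDTLN1. Over merged exons its share was 77.5% ± 1.63 and 77.7% ± 0.368, and over the longest transcript 64.3% ± 2.07 and 64.5% ± 0.267 (SD, n = 3 each). Id2 gave 55.1% ± 1.19 of the Id FPKM in controls and 55.1% ± 5.33 after PDTLN1, where library 2 was low at 49.2%. Its share was 29.4% ± 0.946 and 29.8% ± 4.55 over merged exons, and 30.8% ± 1.02 and 31.2% ± 4.53 over the longest transcript.

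The members' transcripts had little sequence in common. Of the stretches of 50 bases in each member's GENCODE transcripts, none was shared with another member. The longest exact match between Id transcripts was 19 bases, between Id2 and Id3, and that between E proteins 47 bases, between Tcf4 and Tcf12. Id2 (chromosome 12, 25093801 to 25096092, minus strand in the table) shared 0.329% of its stretches with 1 predicted gene, Gm6175. Id4 (chromosome 13, 48261427 to 48264036, plus strand) has exons overlapping the antisense gene A330033J07Rik, which had 0 counts in all 6 libraries. It shared 2.08% of its stretches with Gm49291 and 0.474% with that antisense gene. Tcf3 (chromosome 10, 80409514 to 80433647) and Tcf12 (chromosome 9, 71842688 to 72111871), both on the minus strand, and Tcf4 (chromosome 18, 69343356 to 69689079, plus strand) shared at most 0.242% of their stretches with other genes. Inside Tcf12 lie 7 provisional gene models on its strand, without exon overlap and with mean counts of at most 11.67. How strand and reads with several matches were counted is not given in the sources used here.

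Genes upstream of the Id genes, their other partners and genes known to respond to the same factors were then read from lists. The lists share some tested genes, so they are not separate observations. Smad6, Smad7 and Bambi are both BMP inhibitors and BMP targets. Hey1 and Atoh8 are BMP targets that are also listed as a repressor and an activator, and Smurf2 is listed as an inhibitor and for Id protein stability. Of 140 listed genes 82 were tested, of which edgeR and DESeq2 each called 0 after adjustment over the whole table; the unadjusted p of edgeR was under 0.05 for 4 of the 82, and for 318 higher and 234 lower of all 13836 genes. Their log2 fold changes were below 0 for 41 and above 0 for 41, with a median of 0.00, as over all genes, of which 50.3% were below 0. The groups did not overlap for 6 with lower and 4 with higher values, out of 82; over all genes the shares were 4.98% and 4.81%.

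BMP ligands, which switch on Id transcription, gave no member past the threshold among 8 tested. Bmp4 and Bmp7 were at 7.67 and 5.12 CPM in controls and 7.90 and 4.52 CPM after PDTLN1. Bmp8a, the ligand gene with the smallest p, averaged 1.27 and 0.769 CPM, which is -0.71 in log2 fold change (SE 0.38). Gdf6 and Bmp6 averaged 1.21 and 2.19 CPM in controls and 1.62 and 1.76 CPM after PDTLN1. The receptor and SMAD genes, which carry the signal to the nucleus, had 13 tested members, 11 of them above 0, and a median log2 fold change of 0.07. The type 1 receptor gene Bmpr1a was at 150 ± 6.90 and 159 ± 7.86 CPM, both ± SD with n = 3. The type 2 receptor gene Bmpr2 was at 85.7 to 106 CPM in controls and 95.0 to 117 CPM after PDTLN1, and the co-receptor gene Rgmb at 9.41 to 12.5 and 12.8 to 13.1 CPM. Smad1 and Smad4, which encode the BMP transducer and its shared partner, had log2 fold changes of -0.01 and 0.00.

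Of 14 tested inhibitors of the pathway, 8 lay above 0 and 6 below, with a median of 0.05 and none past the threshold. Ski, which encodes a SMAD co-repressor, was at 89.1 to 95.8 CPM in controls and 101 to 114 CPM after PDTLN1. In log2 fold change it stood at 0.21 (SE 0.07), with an unadjusted p of 0.0180 and an edgeR adjusted p of 0.989. Chrdl1, a secreted BMP antagonist, and Smad7, an inhibitory SMAD, had log2 fold changes of 0.21 and -0.18.

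BMP targets other than the Id genes had 14 tested members, 11 below 0 and 3 above, with a median log2 fold change of -0.17; none passed the threshold. Their summed level was 116 to 124 CPM in controls and 99.6 to 108 CPM after PDTLN1. Hey1, a basic helix-loop-helix repressor downstream of Notch and BMP, was at 8.35 to 9.59 CPM in controls and 6.29 to 7.35 CPM after PDTLN1, a difference of -0.45 on the log2 scale (SE 0.15), with an edgeR adjusted p of 0.989. Cdx2, a caudal homeobox factor, averaged 7.36 and 5.07 CPM (log2 fold change -0.53, SE 0.27), and Runx2, the osteoblast factor, 2.64 and 1.55 CPM (-0.75, SE 0.38). The groups did not overlap for these 3 genes, out of 14, where 4.98% of all genes had such groups with PDTLN1 lower.

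Most of the listed partners that compete for E proteins had too few counts to test. Of 43 tissue-specific basic helix-loop-helix activators, 9 had enough counts to test and 7 had 0 counts in all libraries, among them Neurog3, Neurod2 and Neurod6. Their summed level was 34.3 to 38.0 CPM in controls and 32.3 to 37.9 CPM after PDTLN1. Twist1, a mesenchymal factor, was the most abundant at 11.6 and 11.2 CPM. In control FPKM Twist1 was at 7.14, below Tcf3 at 14.8 but above Tcf12 at 3.97 and Tcf4 at 1.13. That order carries the FPKM lengths, which for Tcf12 and Tcf4 were 2.01 and 1.85 times their merged exons. In CPM, not divided by length, Tcf12 and Tcf4 averaged 124 and 57.1 in controls, above Twist1. Twist1 was not measured over the other lengths. Neurog2, a proneural factor, averaged 1.33 and 0.953 CPM, Lyl1 1.33 and 1.63 CPM, and Atoh8 0.865 and 1.18 CPM. None of the 9 passed the threshold, and the groups overlapped for all 9.

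Hes and Hey repressors and the related Bhlhe40 and Bhlhe41, which also carry a helix-loop-helix, had 7 tested members, 6 below 0, with none past the threshold. The 6 include Hey1, already given among the BMP targets. Hes2 was at 1.31 ± 0.289 and 0.577 ± 0.306 CPM (SD, n = 3 each), which is -1.18 in log2 fold change (SE 0.45). Hes6, an inhibitor of Hes1, was at 13.9 ± 0.910 and 12.8 ± 2.26 CPM, and Hes1 had a log2 fold change of -0.13. Partners of Id outside this family had 6 tested members, 5 of them above 0. The retinoblastoma gene Rb1, whose protein Id2 binds, was at 6.92 ± 0.666 and 8.28 ± 0.630 CPM, a difference of 0.26 on the log2 scale (SE 0.16). The ETS factor genes Elk4 and Elk3 had log2 fold changes of 0.26 and 0.13.

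Genes known from other cells to respond to E proteins showed no member past the threshold among 11 tested, with 5 above 0, 6 below and a median of -0.01. The cell cycle inhibitor gene Cdkn1a, a classic target that Id proteins restrain, had means of 26.2 and 26.8 CPM (0.03 in log2 fold change). Cdkn1c, which encodes the cell cycle inhibitor p57, was at 2.33 to 3.17 CPM in controls and 1.48 to 1.79 CPM after PDTLN1. In log2 fold change it stood at -0.75 (SE 0.26), with an edgeR adjusted p of 0.989. Cdkn2a and the chemokine receptor gene Cxcr4 had log2 fold changes of -0.28 and -0.27. Cdh1, the E-cadherin gene that E proteins can repress, was at 54.0 and 55.2 CPM.

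The genes most like Id1, Id2 and Id3 across the 6 libraries were found by the root mean square difference between a gene's log2 CPM around its own mean and the mean profile of the 3 Id genes. Among 9927 genes with at least 10 CPM, the median difference was 0.28 log2 units. Among the nearest named genes were Gdap1l1 at 0.06, Nudt22 at 0.09, the actin-bundling gene Fscn1 at 0.09, Cant1 at 0.10 and Zfp959 at 0.11. Id1 itself lay at 0.10 from the profile, Id2 at 0.12 and Id3 at 0.06. The profile includes the difference between the groups, and these genes were picked for being close to it. Fscn1 was at 282, 333 and 298 CPM in controls and 207, 213 and 221 CPM after PDTLN1. All 3 PDTLN1 values were below every control, as for 4.98% of all genes. The edgeR adjusted p of Fscn1 was 0.112, and that of Gdap1l1, Nudt22, Cant1 and Zfp959 was 0.989. Like Id1, Fscn1 was called with DESeq2, with no filter beyond 1 count and with the principal component as a covariate. Among the other members, Tcf12 and Tcf3 lay at 0.26 and 0.27, Tcf4 and Id4 at 0.39.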

How the data were processed

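The members and lists were chosen with earlier results of these data known. The deposited counts are raw whole numbers for each gene. The deposited FPKM derive from them, since 15678 of 15678 genes counted in all 6 libraries gave 1 length each (within 0.1%). The submitters' processing notes list Bowtie 0.12.2, mm8 and mm9 without saying what each was for. Gene positions matched GENCODE M21 (GRCm38) for 80.9% of identifiers found there.

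Counts were fitted with edgeR 4.0.16 in R 4.3.3: filterByExpr (13836 genes), TMM scaling, robust glmQLFit and two-sided glmQLFTest, Benjamini-Hochberg over all genes, threshold 0.05, with DESeq2 1.42.0 as an alternative. All 7 members passed the filter. SEs come from the fold change and its F statistic (log2 fold change over root F). The principal component used log2 CPM (prior count 2) without the members. Replicate numbers were not in the model. The fit was also run on simulated counts. In these all genes had the same relative spread beyond counting and no principal component divided the libraries, so that run does not measure errors in these data. Named are the members, of each list (markers apart) the 3 genes with the smallest p, the 6 nearest profiles (1 is not reported here) and the genes called over all genes, which were Dcbld2, Ipmk and Ppp1cb, all higher; further list genes and markers were chosen after their values were seen.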

Additional observations from a re-analysis of the deposited data

How the results depend on the processing

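The direction of Id1, Id2 and Id3 was the same in all 15 settings tried, with log2 fold changes of -0.57 to -0.49, -0.67 to -0.33 and -0.64 to -0.41. Id3 was at -0.64 without both libraries numbered 1, a setting chosen after the data were seen, as were the principal component as a covariate and the annotation lengths. Id4, Tcf3, Tcf4 and Tcf12 were below 0 in 4, 3, 2 and 14 of 15 settings. The number of members called went from 0 to 1, Id1, with DESeq2, with no filter beyond 1 count and with the component as a covariate, and to 3 without both libraries numbered 1. The number of genes called over all genes, 3, was 10 with DESeq2, 8 with no filter, 8 with the component as a covariate and 91 without both libraries numbered 1. Leaving out 1 library gave 2 to 13: 13 without control 1, 5 without control 3, 8 without PDTLN1 1 and 6 without PDTLN1 2. With the replicate number as a block 1 gene was called and no member, and Id1, Id2 and Id3 stood at -0.52, -0.48 and -0.48. Deviations of libraries that share a number had correlations across genes of -0.36, -0.14 and -0.10. None of the controls was closest to its namesake. These deviations still carry the principal component, with control library 1 and PDTLN1 library 1 on opposite sides of it. The correlations therefore cannot show whether libraries with the same number shared a culture. The stricter filter, library size alone, DESeq2 size factors and a threshold of 0.1 left 3 genes and 0 members. The listed partner and pathway genes gave 0 calls in every setting. The Id to E protein ratio after PDTLN1 was 0.639 to 0.762 of the control ratio over its settings. Precision limits what could be seen: SEs had a median of 0.129 over all genes, and that of Id4 was 0.27.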

Other observations

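Genes with names like those of the E proteins, which act with beta-catenin instead, were also read. Control and PDTLN1 means of Lef1 were 63.3 ± 2.96 and 52.7 ± 3.13 CPM (SD, n = 3 each), which is -0.26 in log2 fold change (SE 0.08). Tcf7l1 was at 75.2 ± 6.19 and 82.9 ± 10.2 CPM, and Tcf7l2 at 8.97 ± 1.11 and 11.2 ± 0.233 CPM. None of the 4 genes of this list passed edgeR's threshold over all genes, 1 was at an unadjusted p under 0.05, and the groups did not overlap for Lef1, lower, and Tcf7l2, higher, as for 4.98% and 4.81% of all genes. Genes that set the stability of Id proteins, among them the deubiquitinase gene Usp1 at 156 and 154 CPM, its cofactor gene Wdr48 at 80.2 and 85.3 CPM, Cops5 at 120 and 113 CPM and Cdc20 at 173 and 163 CPM, had log2 fold changes of -0.02, 0.09, -0.08 and -0.09, and none of 6 passed.

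The length behind the deposited FPKM was compared with GENCODE M21 for 15618 genes. It was within 5% of the summed transcript lengths for 24.8% of them, of the longest transcript for 23.5% and of the merged exons for 20.5%. The median ratio to the merged exons was 1.20 and that to the summed transcripts 0.745. Levels compared between genes by these FPKM carry that length, as the places of Id1 and Id2 show.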
